A study of Mus musculus with 6 samples.

Results

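The granins and the dense-core vesicle proteins followed here are 10 genes out of the 55341 in the deposited count table of mouse aorta, *Chga*, *Chgb*, *Scg2*, *Scg3*, *Scg5*, *Pcsk1*, *Pcsk2*, *Cpe*, *Ptprn* and *Ptprn2*. They were found by gene symbol, as parts of the secretory granule machinery, and were selected on the counts and fold changes of miRNA-26b-/- against miRNA-26b+/+ mice over all 6 libraries, which were known, and on the nearness of *Ptprn* and *Scg2* to the targeted gene. Their differences between the genotypes are therefore described and not tested. RNA of 3 miRNA-26b-/- mice (libraries M2626, M2627 and M2628) and of 3 miRNA-26b+/+ mice (M2629, M2630 and M2631) was sequenced, 1 library per mouse, and reads per gene were deposited. These are called the knockout and the wild-type libraries from here on. All mice were 8 weeks old and on chow diet, and the labels give C57BL/6NCrl as the strain of both groups.

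The miRNA-26b-/- allele was made in R1/E embryonic stem cells of the 129/Sv strain. A stretch of *Ctdsp1* that holds the miRNA was flanked by loxP sites, a neomycin cassette was taken out with Flp, and the floxed stretch was deleted by a tamoxifen-inducible CreERT2 that was later bred out. The promoter that drives CreERT2 is not named, and no littermate or tamoxifen status is given for the controls. The methods describe a C57BL/6 background and the results a mixed one of 129/Sv and C57BL/6, so the deletion and any 129/Sv DNA that remains around it cannot be told apart in these mice. By the labels the samples are aortic endothelial cells, whereas by the methods the arch and the thoracic part of the vessel were taken. Markers of smooth muscle summed to between 30860 and 40320 CPM (counts scaled to a common library total) in each library and those of endothelium to between 409.7 and 1681 CPM, so the libraries held RNA of smooth muscle beside that of endothelium.

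Dense-core vesicles are the organelles in which neurons and endocrine cells store peptides and catecholamines until calcium triggers their release. Granins are acidic proteins that condense in the trans-Golgi network and fill the vesicle core. Prohormone convertases and carboxypeptidase E cut and trim the peptide precursors inside the maturing vesicle, and transmembrane proteins of the tyrosine phosphatase family sit in its membrane. In the vessel wall such vesicles are best known from the sympathetic nerves that run in the adventitia, where they hold noradrenaline and neuropeptide Y.

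The mature miRNAs of the deleted hairpin are shown because they are what the miRNA-26b-/- mice lack. The sequences are those of RefSeq, the hairpin lies on the forward strand of chromosome 1 (chr1:74394310-74394394 in GRCm38), and capitals mark the seed, bases 2 to 8.
mmu-miR-26b-5p: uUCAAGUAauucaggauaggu
mmu-miR-26b-3p: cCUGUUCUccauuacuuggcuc
The longest annotated 3′ UTR of each member was searched for the letters that pair with the seed of miR-26b-5p. None of the 10 members held TACTTGA or TACTTGAA, which were found in 9.67% of 21020 genes with a 3′ UTR. The shorter match ACTTGAA, with which 18.3% of genes held at least 1 of the 3 kinds, was found in *Pcsk2* alone among the members, at base 276 of its 3′ UTR (chr2:143814087-143814093, forward strand, exonic). The match is in capitals.
Pcsk2: ttgtgctgcACTTGAAaccaggaaa

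The promoters were read because some of the members, *Scg2*, *Chga* and *Ptprn2* among them, were high in the same libraries, as described further on. RefSeq windows of 300 bases around the gene start (GRCm38.p6) matched 9 of the 10 members, all but *Cpe*. Distances are from the RefSeq start, which can differ from the start in the GENCODE coordinates given with each gene, so that the matches of *Scg2* and *Chgb* lie within the GENCODE gene. Both strands were searched for the cAMP response element TGACGTCA, known from the promoters of peptide and granin genes, for its variant TGACGTAA, and for TTCAGCACC, the opening letters of RE1, the element bound by the neuronal repressor REST. Capitals mark the match, and each sequence is given along its gene.
Scg2, TGACGTCA at -68 from the RefSeq start, chr1:79440078-79440103, reverse strand: ctgagccggTGACGTCAgcgtggaat
Chgb, TGACGTCA at -72, chr2:132781561-132781586, forward strand: gctgctccgTGACGTCAgggctgagc
Pcsk1, TGACGTCA at -78, chr13:75089770-75089795, forward strand: aggtagatcTGACGTCAagagatggc
Chga, TGACGTAA at -44, chr12:102554888-102554913, forward strand: gcggtcctaTGACGTAAtttcctggg
Scg2, TTCAGCACC on the opposite strand, chr1:79440016-79440042: gagctgtccGGTGCTGAAacggcccga
Ptprn2, TTCAGCACC on the opposite strand, chr12:116485724-116485750: gcgctgtccGGTGCTGAAgctcggccg
TGACGTCA was in 1.79% of all 32851 promoter windows, TGACGTAA in 0.499% and TTCAGCACC in 0.371%. The 5 letters TGACG, which lie within both forms of the cAMP response element, were in 20.8% of windows and in those of 8 members, *Ptprn2* being the exception among the members with a window. TATAAA, in 13.6% of windows, was found in *Chga* alone among the members. These matches are descriptions of letters and not of bound sites.

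The libraries held between 25706728 and 33345037 counts, so that 3 counts, taken as the floor of detection, correspond to between 0.09 and 0.117 CPM. The floor covers the error of counting only, since the reads carry no molecular identifiers. *Mir26b* itself had 0, 0 and 0 counts in the knockout libraries and 0, 20 and 0 in the wild-type libraries, too few to check the genotypes. M2627 and M2630, 1 of each genotype, stood apart from the other libraries. Sympathetic neuron markers (16 genes) summed to 580.6 CPM in M2627 and 180.2 CPM in M2630, against 89.77 to 124.2 CPM in the other 4 libraries, and cardiac muscle markers (8 genes) to 322.3 and 263 CPM against 9.138 to 57.62 CPM. Values of the members are therefore given with and without these libraries, an alternative chosen after seeing the data where both were left out.

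**Figure D1:**
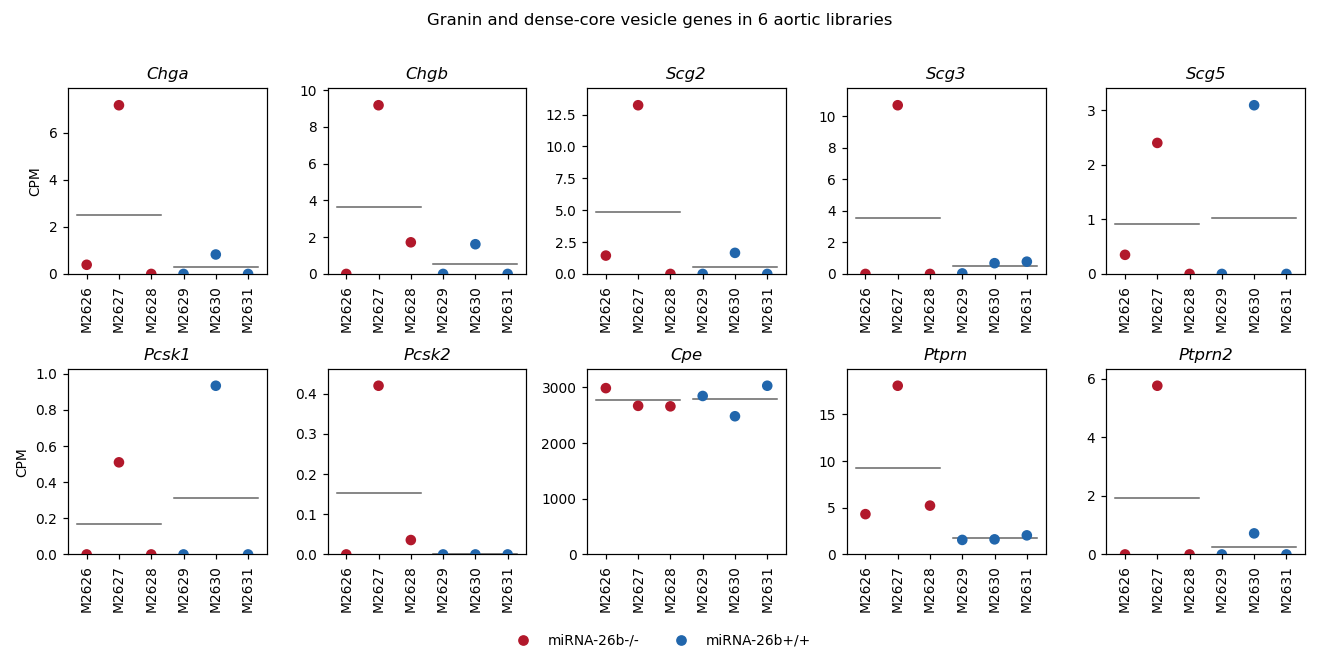
CPM of each of the 10 genes (1 panel per gene, vertical axes from 0) in 3 miRNA-26b-/- (red) and 3 miRNA-26b+/+ libraries (blue), with a line at each group mean. M2627 is highest for 7 genes, M2630 for *Scg5* and *Pcsk1*, and *Cpe* lies between 2482 and 3030 CPM in all libraries.

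The members were seen very unevenly. *Cpe* and *Ptprn* had counts in all 6 libraries, and each of the other 8 had no count in at least 1 library. All 10 members were detected in M2627 and 9 in M2630, all but *Pcsk2*, whereas M2626, M2628, M2629 and M2631 had counts for 5, 4, 3 and 3 members. M2627 was the highest library for 7 of the 10 members, and for 3 of the 5 that passed the filter on low values and were tested. Over all 16017 genes tested it was the highest for 17.7%. Summed without *Cpe*, the members came to 67.45 CPM in M2627 and 11.13 CPM in M2630, and to 6.496, 6.988, 1.589 and 2.823 CPM in M2626, M2628, M2629 and M2631. The same 2 libraries led the sympathetic and cardiac markers, and also the adipocyte markers (6 genes), with 928.1 and 666.7 CPM against 215.5 to 470 CPM elsewhere. The part of these tissues in the members' levels was not tested, and in bulk tissue fewer cells of a type and less RNA per cell cannot be told apart.

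Among the granins, *Chga* encodes chromogranin A, the precursor of vasostatin and catestatin (chromosome 12, 102554969 to 102565028, forward strand). It had 10, 239 and 0 counts in M2626, M2627 and M2628 and 0, 23 and 0 in M2629, M2630 and M2631, which is 0.389, 7.167 and 0 CPM and 0, 0.826 and 0 CPM. The groups overlapped, and 3 of the 6 libraries had no count. *Chga* exceeded 1 CPM in M2627 alone, so it did not pass the filter on low values, and no fold change was fitted.

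*Chgb* encodes chromogranin B, the second classical granin of the chromaffin granule (chromosome 2, 132781278 to 132795079, forward strand). Its counts were 0, 306 and 48 in the knockout libraries (0, 9.177 and 1.72 CPM) and 0, 45 and 0 in the wild-type libraries (0, 1.616 and 0 CPM). M2628 and M2630 were close to each other, M2627 was 5.335 times the next library, and the groups overlapped. The fitted log2 fold change was 2.96 (SE 1.35, n = 3 mice per group), which fell to 0.80 (SE 1.80) without M2627. Without M2630 the 2 remaining wild-type libraries were at 0, so no fold is given.

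*Scg2* encodes secretogranin II, from which secretoneurin is cut, and lies 5.04 Mb from *Mir26b* (chromosome 1, 79434669 to 79440120, reverse strand). It had 37, 441 and 0 counts in the knockout libraries (1.439, 13.23 and 0 CPM) and 0, 46 and 0 in the wild-type libraries (0, 1.652 and 0 CPM). M2626 and M2630 differed little, and M2628 was at 0 like M2629 and M2631. The log2 fold change was 3.36 (SE 1.39) over the 6 libraries and 0.40 (SE 1.91) without M2627. The group means were 4.888 ± 7.256 and 0.5507 ± 0.9538 CPM (SD, n = 3), so the SD was above the mean in both groups.

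*Scg3*, secretogranin III, which anchors chromogranin A to the cholesterol-rich vesicle membrane (chromosome 9, 75643189 to 75684056, reverse strand), was at 0, 357 and 0 counts in the knockout libraries. It was at 1, 19 and 24 counts in the wild-type libraries. In CPM these were 0, 10.71 and 0 against 0.0331, 0.6824 and 0.7788. The miRNA-26b-/- group thus held the highest and the lowest libraries. Only M2627 exceeded 1 CPM, and the gene was not tested.

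*Scg5* encodes 7B2, the chaperone that prohormone convertase 2 needs to mature (chromosome 2, 113776362 to 113829121, reverse strand). Its counts were 9, 80 and 0 in the knockout libraries (0.3501, 2.399 and 0 CPM) and 0, 86 and 0 in the wild-type libraries (0, 3.089 and 0 CPM). M2627 and M2630 were close to each other here, unlike for the 4 granins above. The log2 fold change was 0.06 (SE 1.49), and without M2627 the gene was below the filter.

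The convertases were the lowest members. *Pcsk1* encodes prohormone convertase 1/3 (chromosome 13, 75089826 to 75134861, forward strand) and had 17 counts in M2627 (0.5098 CPM), 26 in M2630 (0.9338 CPM) and none in the other 4 libraries. *Pcsk2* encodes prohormone convertase 2 (chromosome 2, 143546156 to 143816285, forward strand) and had 14 counts in M2627 (0.4199 CPM), 1 in M2628 (0.03584 CPM) and none elsewhere. Neither convertase reached 1 CPM in any library, and neither was tested. *Pcsk2* shares 359 exon bases with *Pcsk2os1* and *Pcsk2os2* on the opposite strand. The counting did not use strand, and neither antisense gene had a count.

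*Cpe* encodes carboxypeptidase E, which trims basic residues from peptide precursors (chromosome 8, 64592542 to 64693054, reverse strand). It had 76796, 88983 and 74238 counts in the knockout libraries and 85990, 69108 and 93380 in the wild-type libraries. In CPM these were 2987, 2669 and 2660 against 2846, 2482 and 3030, with means of 2772 ± 186.5 and 2786 ± 279 CPM (SD, n = 3). The groups overlapped fully and M2627 did not stand out. The log2 fold change was -0.02 (SE 0.12) and stayed within -0.09 to 0.05 with each library left out in turn. *Cpe* took between 0.248% and 0.303% of all counts and ranked 30 by length-scaled level among the genes tested.

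The vesicle membrane proteins differed from each other. *Ptprn* encodes IA-2, a phosphatase-like protein of the vesicle membrane without catalytic activity and an autoantigen in type I diabetes, and lies 0.853 Mb from *Mir26b* (chromosome 1, 75247027 to 75264502, reverse strand). It had 111, 603 and 146 counts in the knockout libraries and 47, 45 and 63 in the wild-type libraries. In CPM these were 4.318, 18.08 and 5.232 against 1.556, 1.616 and 2.044. Every knockout library was above every wild-type library, and *Ptprn* was the 1 member of which this held. Over all genes tested, 6.13% lay higher without overlap and 5.52% lower. The means were 9.211 ± 7.697 and 1.739 ± 0.2664 CPM (SD, n = 3), a ratio of 5.298, and the ratio was 2.746 without M2627 and 2.653 without M2627 and M2630. The log2 fold change was 2.46 (SE 0.72), 1.44 (SE 0.74) and 1.40 (SE 0.85) in the same order. Unlike for *Scg2* and *Chgb*, M2626 and M2628 also lay above the wild-type libraries, and M2630 lay among them.

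Of the exon bases of *Ptprn*, 189 are shared with *Gm28294* on the opposite strand, and a read over both was counted for each. *Gm28294* had 0, 70 and 0 counts in the knockout libraries and none in the others, so it had counts in M2627 alone. Schwann cell markers (11 genes) were also higher in every knockout library than in every wild-type library. They summed to 493.4, 540.1 and 341.2 CPM in the knockout libraries and to 235.2, 256.8 and 289.2 CPM in the wild-type libraries. Among the knockout libraries their order differed from that of *Ptprn*, with M2626 above M2628. Of these 11 genes, 8 rose in miRNA-26b-/- mice at an unadjusted p under 0.05 in edgeR's quasi-likelihood test (72.7%, against 6.47% of all genes). Without M2627, 6 of 10 tested did so (60%, against 5.76%), and without M2627 and M2630 4 of 10 (40%, against 4%). None of the Schwann cell markers passed after adjustment in these fits. The part of Schwann cells in the level of *Ptprn* was not tested. Endothelial markers (7 genes) were lowest in M2626 and M2627, at 409.7 and 448.6 CPM, and highest in M2628, at 1681 CPM. The part of endothelial cells in the level of *Ptprn* was not tested either.

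*Ptprn2* encodes phogrin, the close relative of IA-2 in the same membrane (chromosome 12, 116485720 to 117276849, forward strand). It had 192 counts in M2627 (5.758 CPM), 20 in M2630 (0.7183 CPM) and none in the other 4 libraries. It had counts in 1 library of each genotype and was not tested.

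Of the 10 members, 5 passed the filter of more than 1 CPM in at least 2 libraries, and *Ptprn*, *Scg2* and *Chgb*, or 60%, had an unadjusted p under 0.05 in edgeR's quasi-likelihood test. Over all genes tested this share was 6.47%, with 3.4% higher and 3.07% lower. The members were chosen with this comparison known, so nothing is read from their count. None passed after Benjamini-Hochberg adjustment, and over all genes 0.00624% did. With DESeq2, limma voom and the earlier quasi-likelihood method of edgeR, *Ptprn* alone of the 5 had an unadjusted p under 0.05, and none passed after adjustment. Without M2627 none of the 4 members still tested passed the unadjusted threshold, against 5.76% of all genes, and without both M2627 and M2630 none of 2, against 4%.

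**Figure D2:**
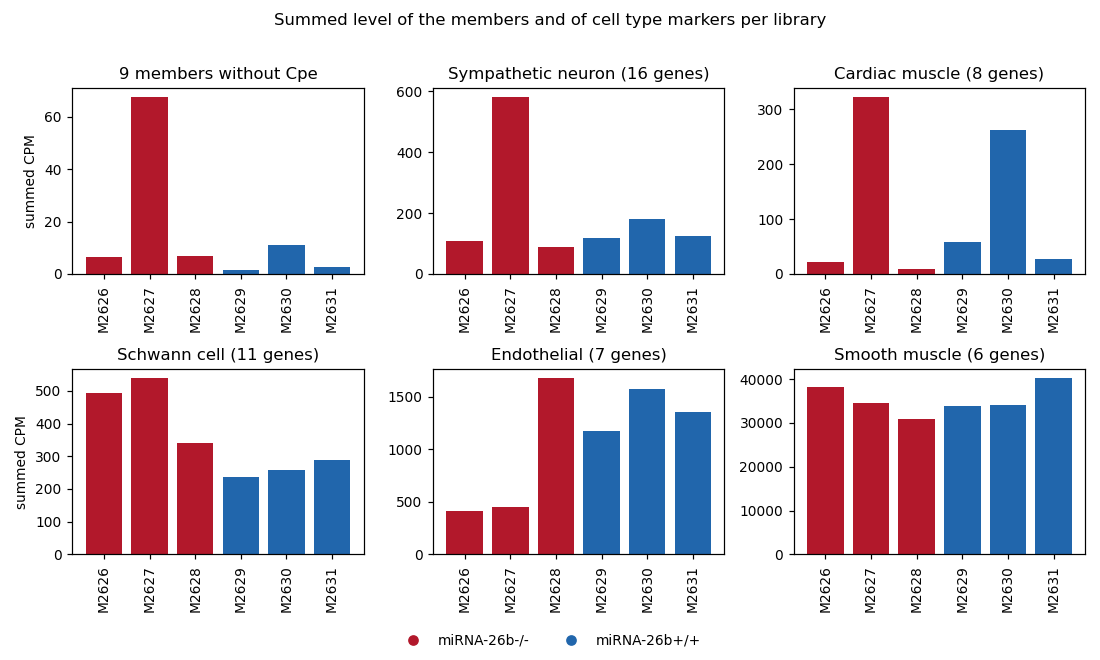
Summed CPM per library (bars from 0) of the 9 members without *Cpe* and of 5 lists of cell type markers, miRNA-26b-/- in red and miRNA-26b+/+ in blue. The members reach 67.45 CPM in M2627 and 11.13 CPM in M2630, the 2 libraries in which the sympathetic and cardiac markers are also highest, while Schwann cell markers are higher in all 3 knockout libraries.

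The sympathetic markers behaved as follows in the libraries with the most reads of the members. *Th*, the rate-limiting enzyme of catecholamine synthesis, had 1244 counts in M2627, 98 in M2630 and none elsewhere, and *Dbh*, which makes noradrenaline inside the vesicle, had 2892, 413 and none. All 16 sympathetic genes were highest in M2627, and 4 of 13 tested (30.8%, against 6.47% of all genes) rose in miRNA-26b-/- mice at an unadjusted p under 0.05 in edgeR's quasi-likelihood test. Without M2627 none of 11 rose and 1 fell, and the median log2 fold change of the list turned from 1.77 to -0.58. That fit keeps M2630, the wild-type library with the most sympathetic reads. Without M2627 and M2630, 0 of 8 passed the unadjusted threshold and the median was 0.04. Markers of chromaffin and glomus cells (7 genes, with *Th* and *Dbh* among them) reached 129.7 CPM in M2627 and 24.21 CPM in M2630, and at most 5.757 CPM elsewhere. *Dbh* alone gave 86.73 and 14.83 CPM of these sums. *Th* and *Dbh* are also on the sympathetic list, so the chromaffin and glomus sum does not stand apart from that list. Those of parathyroid and thyroid (7 genes) were at most 3.575 CPM in any library, with *Pth* at 0 in all. Lists of adipocytes, macrophages and lymphocytes (6 genes each) had 0, 0 and 1 gene past the unadjusted threshold, the last being *Rag1*, which was lower. Of the cardiac markers 0 of 7 tested passed, of smooth muscle 1 of 6 (*Myocd*, lower) and of endothelium 1 of 7 (*Tek*, lower). Without M2627, but with M2630 kept, all 5 cardiac markers tested had a negative log2 fold change. Of these, 4 passed the unadjusted threshold (against 5.76% of all genes) and 0 the adjusted one. Without M2627 and M2630, 1 of 4 cardiac markers passed unadjusted, as lower (against 4% of all genes).

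The ratio of M2627 to M2630 separated the members. In CPM it was 15.69 for *Scg3* (95% exact interval 9.9 to 26.37), 11.19 for *Ptprn* (8.259 to 15.51), 8.677 for *Chga* (5.648 to 13.95), 8.016 for *Ptprn2* (5.048 to 13.42) and 8.005 for *Scg2* (5.9 to 11.1). *Chgb* was lower at 5.678 (4.142 to 7.948). For *Scg5* it was 0.7768 (0.5656 to 1.066) and for *Pcsk1* 0.546 (0.278 to 1.045), so the intervals of both held 1, and *Cpe* was at 1.075 (1.065 to 1.086). The sympathetic markers spanned much of the same range, from 1.273 for *Uchl1* and 1.992 for *Stmn2* to 5.847 for *Dbh* and 10.6 for *Th*. *Scg5* and *Pcsk1* were thus carried about as much by M2630 as by M2627, unlike the granins. These intervals compare 2 libraries and cover counting error only.

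**Figure D3:**
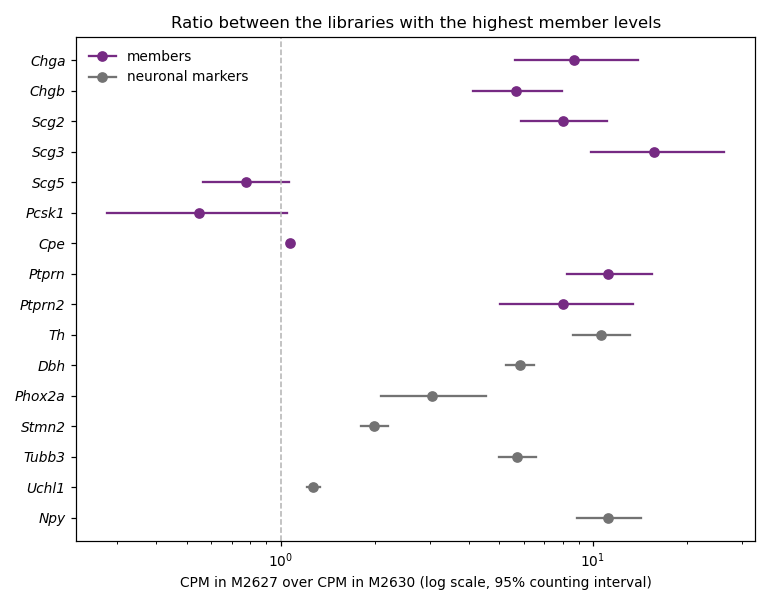
CPM in M2627 over CPM in M2630 on a log axis, with 95% exact counting intervals, for the 9 members (purple) and the 7 neuronal genes (grey) with counts in both libraries; the dashed line marks a ratio of 1. The granins, *Ptprn* and *Ptprn2* lie between 5.678 and 15.69, and *Scg5*, *Pcsk1* and *Cpe* lie near 1.

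Scaled by exon length, the members fell into *Cpe* and the rest. *Cpe* had a mean of 1065 RPKM (CPM per kilobase of exon) over the 6 libraries, from 951.3 to 1161. The means of the others were 1.289 RPKM for *Ptprn*, 1.081 for *Scg2*, 0.7611 for *Chgb*, 0.7427 for *Scg3*, 0.6201 for *Scg5*, 0.5069 for *Chga*, 0.1255 for *Ptprn2*, 0.04293 for *Pcsk1* and 0.009602 for *Pcsk2*. The ranges of all neighbours in this order overlapped except those of *Cpe* and *Ptprn*, so below *Cpe* the order is not resolved. In M2627 alone *Scg2* was the highest of the others, at 5.259 RPKM, followed by *Ptprn* at 4.256 and *Scg3* at 3.91. The medians over the 6 libraries were 0.7487 RPKM for *Ptprn* and 0.2861 for *Scg2*, which places *Ptprn* further ahead than its mean does.

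**Figure D4:**
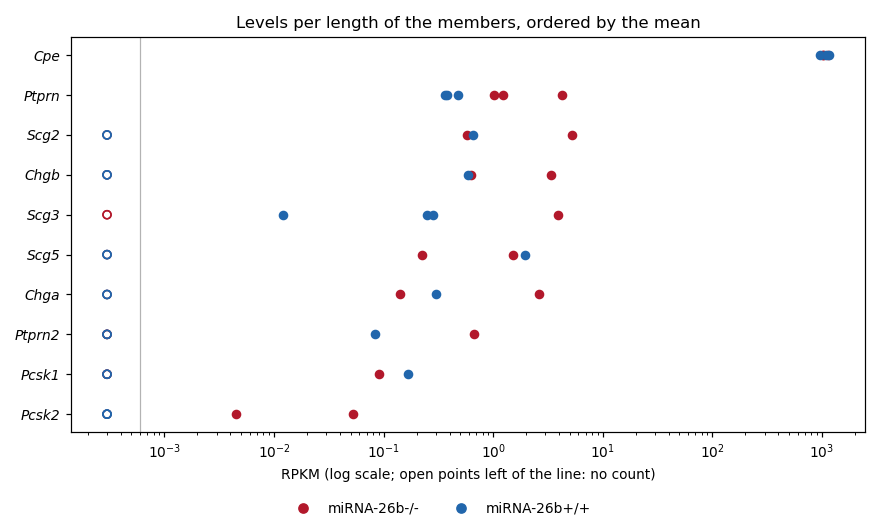
RPKM of the 10 members in each library on a log axis, ordered by the mean, miRNA-26b-/- in red and miRNA-26b+/+ in blue. Open points left of the line stand for libraries without a count and lie on top of each other; *Cpe* lies near 1065 RPKM in all 6 libraries and no other library value exceeds 5.259 RPKM.

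Across the 6 libraries the members paired up in ways that follow these patterns. Pearson's r of log2(CPM + 0.5) was 0.979 for *Scg2* and *Chga*, 0.977 for *Ptprn2* and *Chga*, 0.945 for *Ptprn2* and *Scg3*, and 0.962 for *Scg5* and *Pcsk1*. *Ptprn* had 0.73 with *Scg2* and 0.34 with *Scg5*, and *Cpe* had negative values with all other members, from -0.80 with *Pcsk1* to -0.14 with *Ptprn*. These values rest on 6 libraries that share M2627 and M2630 as their extremes and are given as a description. The tested genes most like *Scg2* were *Mapk8ip2* (0.996), *Mov10* (0.996) and *Necab1* (0.991), and those most like *Chgb* were *Spock1* (0.997), *Coq6* (0.995) and the synaptotagmin gene *Syt4* (0.99). For *Scg5* they were *Casq2* (0.995), *Trim72* (0.991) and *Phb* (0.991), of which *Casq2* encodes the calcium-binding protein of the cardiac sarcoplasmic reticulum. For *Ptprn* they were *Pycr1* (0.987), *Slc31a1* (0.98) and *Cirbp* (0.979), and for *Cpe* they were *Acad8* (0.988), *Ncl* (0.983) and *Abhd1* (0.979). Between 17 and 53 tested genes had an r above 0.95 with each of these 5 members.

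The other genes of the pathway were read from 5 lists of 117 genes, of which 76 were tested. At an unadjusted p under 0.05 in edgeR's quasi-likelihood test 13 rose and 1 fell in miRNA-26b-/- mice, or 18.4% against 6.47% of all genes, and the median log2 fold change was 0.08 against 0.01. None passed after adjustment, by edgeR, DESeq2 or limma voom. Without M2627, 3 of 69 passed the unadjusted threshold (4.35%, against 5.76% of all genes), and without both M2627 and M2630 2 of 62 did (3.23%, against 4%). With DESeq2, limma voom and the earlier method of edgeR, 5, 4 and 3 of the 76 passed. M2627 was the highest library for 23 of the 76 genes.

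Of the 4 other granin-like genes, 1 of the 3 tested rose (33.3%, against 6.47% of all genes). *Pcsk1n*, which encodes the convertase inhibitor proSAAS, had 21, 397 and 56 counts in the knockout libraries and 1, 66 and 0 in the wild-type libraries, a log2 fold change of 2.81 (SE 1.20) that was 0.91 (SE 1.45) without M2627. *Nucb2*, the precursor of nesfatin, was the most abundant and had from 27.62 to 41.76 CPM, with a log2 fold change of -0.26 (SE 0.22). *Resp18*, a vesicle protein gene 0.878 Mb from *Mir26b*, had 30, 57 and 0 counts in the knockout libraries and none in the wild-type libraries, and *Vgf* had 29 counts in M2627 alone. *Pcsk1n* thus spread over the libraries much as *Chgb* did.

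Of the 13 other processing enzymes, 11 were tested and 1 fell (9.09%, against 6.47% of all genes). *Pam*, which amidates peptides, had from 2046 to 2488 CPM (log2 fold change -0.12, SE 0.12), and the protease gene *Ctsl* from 277.2 to 391.3 CPM (-0.03, SE 0.15). Like *Cpe*, both were abundant in every library and their groups overlapped. *Ece1*, the endothelin-converting enzyme, had 98.65, 121.8 and 242.1 CPM in the knockout libraries and 200.2, 269.6 and 246.8 CPM in the wild-type libraries, and fell by 0.65 on the log2 scale (SE 0.25, unadjusted p = 0.0215, edgeR). Its low libraries were M2626 and M2627, those with few endothelial reads, and without M2627 its unadjusted p was 0.0839 (edgeR). The part of endothelial cells in the level of *Ece1* was not tested.

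Of 24 genes of vesicle formation and filling, 21 were tested and 2 rose (9.52%, against 6.47% of all genes). *Slc18a2*, the vesicular monoamine transporter, had 42, 1058 and 133 counts in the knockout libraries and 64, 89 and 0 in the wild-type libraries (log2 fold change 2.98, SE 1.003, unadjusted p = 0.00935, edgeR), and *Sv2c*, a vesicle glycoprotein gene, had 29, 768 and 0 against 33, 64 and 0 (3.01, SE 1.25). Both rested on M2627: without it their log2 fold changes were 0.90 and -1.02. *Atp6ap1* of the proton pump and *Rab2a*, the most abundant of the list, had log2 fold changes of -0.13 (SE 0.15) and -0.06 (SE 0.14).

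Of 35 genes of docking and release, 29 were tested and 8 rose (27.6%, against 6.47% of all genes). *Syt4* had 0, 1074 and 155 counts in the knockout libraries and 0, 58 and 0 in the wild-type libraries, a log2 fold change of 4.37 (SE 1.30). The SNARE gene *Snap25* (3.66, SE 1.34), the calcium sensor gene *Syt9* (2.98, SE 1.19) and *Rab3c* (3.09, SE 1.30) also had most of their counts in M2627. *Cplx2*, complexin 2, had 21.59, 62.47 and 33.15 CPM against 18.6, 23.63 and 12.2 CPM (1.13, SE 0.36) and missed the threshold without M2627 (unadjusted p = 0.104, edgeR). *Vamp2*, the vesicle SNARE synaptobrevin 2, was the exception, with 156.5, 141 and 135.1 CPM in the knockout libraries and 94.79, 111.9 and 111.7 CPM in the wild-type libraries. Its groups did not overlap, and 6.13% of all genes tested lay higher without overlap. Its log2 fold change was 0.43 (SE 0.16, unadjusted p = 0.0168, edgeR) and 0.44 (unadjusted p = 0.0318) without M2627. Without M2627 and M2630 it was 0.49 and missed the threshold (unadjusted p = 0.0506, edgeR). *Rab3d*, with *Vamp2* the most abundant of the list by CPM, had a log2 fold change of 0.04 (SE 0.17).

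Of 41 peptide cargo genes 23 had no count in any library, 12 were tested and 2 rose (16.7%, against 6.47% of all genes). *Npy*, neuropeptide Y, had 0, 1060 and 0 counts in the knockout libraries and 0, 79 and 31 in the wild-type libraries (log2 fold change 3.23, SE 1.34), and all of its knockout counts lay in M2627. *Cck*, cholecystokinin, had 91, 83 and 0 against 0, 0 and 6 counts (4.79, SE 2.04). *Edn1* and *Adm*, the vascular peptides endothelin 1 and adrenomedullin, were the most abundant, with 9.357 to 41.28 CPM and 15.48 to 27.06 CPM and log2 fold changes of -0.26 (SE 0.40) and 0.15 (SE 0.30).

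**Figure D5:**
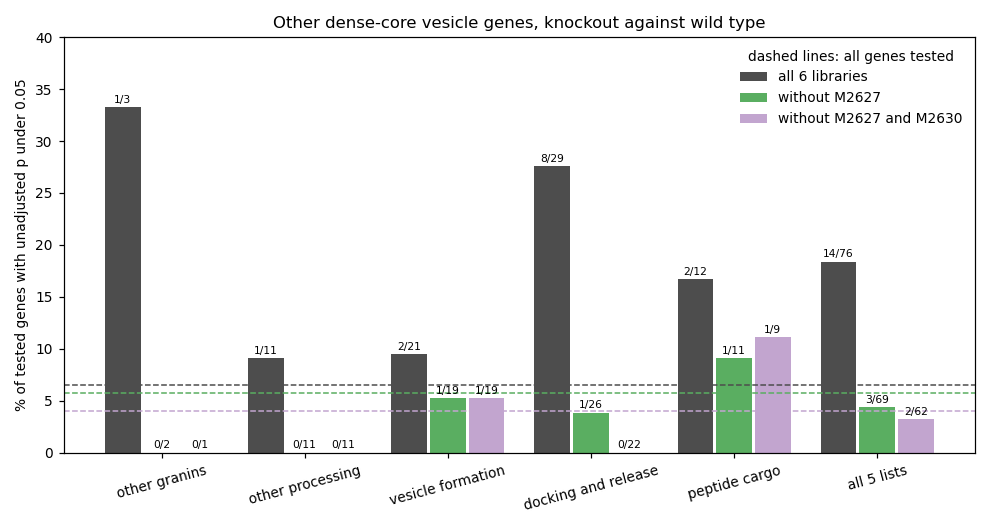
Percentage of the tested genes of each list with an unadjusted p under 0.05 in edgeR's quasi-likelihood test (bars from 0, with called over tested genes), with all 6 libraries, without M2627 and without M2627 and M2630. Dashed lines give the share over all genes tested (6.47%, 5.76% and 4%); for all 5 lists together the share is 18.4%, 4.35% and 3.23%.

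*Ptprn* was set beside the other genes within 5 Mb of *Mir26b*. Of 180 such genes 65 were tested, *Ptprn* not counted, and 1 rose and 5 fell at an unadjusted p under 0.05 (edgeR's quasi-likelihood test), or 9.23% against 6.47% of all genes. None passed after adjustment, by edgeR, DESeq2 or limma voom. The 1 that rose was *Obsl1*, with a log2 fold change of 0.56 (SE 0.21). Those that fell were *Apol7d* (-0.81), *Igfbp2* (-0.73), *Gm28364* (-0.67), *Fn1* (-0.36) and *Stk36* (-2.64). *Resp18*, which had no wild-type count, lies in the same stretch and missed the threshold (unadjusted p = 0.0523, edgeR). With DESeq2 *Resp18* passed it, and 2 genes rose and 4 fell. *Apol7d* is antisense to *Fn1*, and their annotated spans overlap only from base 71652837 to 71653200. *Gm28364* is an antisense gene within the span of *Aamp*, which had a log2 fold change of 0.003 (SE 0.16). Reads over exon bases shared between strands cannot be told apart, and such bases were not counted for these genes. Without M2627, 3 of 63 passed (4.76%). *Ctdsp1*, the host gene of the miRNA, had 200.5, 183.6 and 183.7 CPM in the knockout libraries and 150.6, 163.5 and 176.1 CPM in the wild-type libraries, without overlap (log2 fold change 0.20, SE 0.15, unadjusted p = 0.2, edgeR). Of all genes tested, 6.13% lay higher without overlap.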

How the data were processed

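The authors aligned the reads of TruSeq libraries with STAR to GRCm38 (mm10) and deposited raw counts per gene from featureCounts 1.6.4, which took exons by gene name, ignored strand and counted a read for every gene it overlapped. The file header names GENCODE release M21 and the paper release M23. A second deposited table of counts, log2 CPM, fold changes, F statistics and p-values was not used. Whether mice shared a litter or a day of preparation is not stated, so p-values measure the spread between these libraries.

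A gene was tested if its counts summed to 2 or more and at least 2 libraries exceeded 1 CPM. The test was edgeR's quasi-likelihood test (edgeR 4.0.16, R 4.3.3), after TMM normalization and with a prior count of 0.125. P-values were adjusted by the Benjamini-Hochberg method across the whole table. The procedure was tested on simulated data with log2 changes of 2 in either direction. It recovered 157 of 189 changed genes at an unadjusted p under 0.05, which 6.42% of the unchanged genes also passed. Members and lists were chosen with earlier results of these data known. Named were all members, up to 6 genes of each list with the smallest p under 0.05 and its 2 most abundant, up to 10 near *Mir26b* with a p under 0.05, and the 3 genes most like each tested member; *Resp18*, *Vgf*, *Pth*, *Stmn2*, *Gm28294* and *Ctdsp1* were added after their values were seen. Of the marker lists only a few leading genes are given, and a result that the rule would name is not reported here.

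RPKM are CPM per kilobase of the exon length in the count table. Alternatives were DESeq2 1.42.0 and its size factors, limma 3.58.1 voom, library size alone, the earlier edgeR method, filterByExpr, no filter, the prior count, TMM-scaled RPKM and each library left out; leaving out both M2627 and M2630 and a window of 10 Mb were added after seeing the data.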

Additional observations from a re-analysis of the deposited data

How the results depend on the processing

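Over all genes, the number past an unadjusted p of 0.05 was 1036 with all libraries, ranged from 686 (without M2631) to 1692 (without M2628) with each library left out, and was 607 without M2627 and M2630. The number past an adjusted p of 0.05 was 1, and 57 with DESeq2, 3 with limma voom, 0 with the earlier edgeR method, 0 without M2627 and M2630, and from 0 to 82 (without M2628) with each library left out. Of the pathway genes 14 passed the unadjusted threshold, 5 with DESeq2, 4 with limma voom, 3 with the earlier edgeR method and 2 without M2627 and M2630; with each library left out the number ranged from 3 (without M2627) to 25 (without M2628), and was 5 without M2629 or M2631. Of the genes within 5 Mb of *Mir26b* 6 passed, 3 without M2627 and M2630 and from 3 to 5 with each library left out; within 10 Mb 8 of 100 did. The causes were not tested. With limma voom the log2 fold change of *Scg5* was 1.62 (SE 3.20). The mean RPKM of the 10 members moved by less than their spread when scaled by TMM. No paired analysis was possible because the labels give no replicate numbers shared between the groups. Low counts limit what can be read of all members but *Cpe* and *Ptprn*. The other 8 were at or under the floor of 3 counts in 3 or more libraries, the fitted *Scg2*, *Chgb* and *Scg5* among them. The part of sequencing depth in these low counts was not tested.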
